A study of Mus musculus with 21 samples.

Results

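A group of 7 cholesterol synthesis genes was followed across mouse normal colon and colon tumours: Hmgcs1, Idi1, Fdft1, Sqle, Lss, Cyp51 and Insig1. They were chosen by symbol, as targets of the transcription factor SREBP2, from the 24062 genes of a count table, and all 7 had a row and passed the filter on low counts. Of the 7, 6 encode enzymes and Insig1 encodes a regulator, and none encodes a protein of cholesterol uptake. Uptake genes were therefore taken from a separate list.

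Gene expression was measured by RNA sequencing of total RNA in 21 libraries, 3 in each of 7 groups, all from C57BL/6 mice. The groups were wild-type male normal colon, wild-type male tumour, knock-in male normal colon, knock-in male tumour, wild-type female normal colon, wild-type female tumour and knock-in female normal colon. Knock-in mice carry App NL-G-F, in which the mouse's own App locus, encoding the amyloid precursor protein, bears mutations known from familial Alzheimer's disease, so that no separate promoter drives it. Tumours were obtained with AOM/DSS, that is azoxymethane, a carcinogen, with dextran sulfate sodium, an irritant of the colonic mucosa. The labels call the normal libraries untreated, while the series describes them as tissue next to tumours, or as normal colon where no tumour had formed. The 21 libraries include no knock-in female tumours, and ages were not used. Nothing in the labels says whether the libraries of a group came from separate animals, so p-values measure the spread between these libraries, which may be technical.

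Cells make cholesterol from acetyl-CoA. The mevalonate pathway yields isoprenoid units, these are joined to squalene, and squalene is oxidised, folded into lanosterol and trimmed to cholesterol. When sterols in the endoplasmic reticulum are scarce, SCAP carries SREBP2 to the Golgi, where proteases release its active domain, and this domain switches on most genes of the pathway together. When sterols are plentiful, INSIG proteins hold SCAP back. The intestinal epithelium is among the tissues that synthesise cholesterol as well as absorbing it.

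In pathway order, Hmgcs1 encodes the cytosolic synthase that makes HMG-CoA, and lies on chromosome 13 from 119690379 to 119708260 on the plus strand. Idi1 encodes isopentenyl diphosphate isomerase, which supplies the second isoprenoid unit, and lies on chromosome 13 from 8885501 to 8892451 on the plus strand. Its close relative Idi2 had at most 3 counts in any library. Fdft1 encodes squalene synthase, the first step committed to sterols, and lies on chromosome 14 from 63145150 to 63179578 on the minus strand. Sqle encodes squalene epoxidase, a rate-limiting step, and lies on chromosome 15 from 59315077 to 59331192 on the plus strand. Lss encodes lanosterol synthase and lies on chromosome 10 from 76531588 to 76557138 on the plus strand. Cyp51 encodes the cytochrome P450 that demethylates lanosterol and lies on chromosome 5 from 4081145 to 4104746 on the minus strand. Insig1 encodes one of the proteins that hold SCAP in the endoplasmic reticulum, is itself switched on by SREBP2, and lies on chromosome 5 from 28071363 to 28078662 on the plus strand. All coordinates are GRCm38. Exons of Cyp51, Fdft1 and Lss overlap those of Akap9, Ctsb and 4930483K19Rik on the opposite strand. The strand setting of the counting is not given in the sources used here, so reads in these overlaps cannot be assigned to 1 gene.

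Because the 7 genes share a known regulator, their promoters were read from RefSeq (GRCm38.p6), as the 250 bases before each start site. A promoter was matched for Hmgcs1, Idi1, Lss, Cyp51 and Insig1, 5 of the 7 genes, and not for Fdft1 and Sqle. Shown here are Hmgcs1, the gene with a sterol regulatory element form, and Idi1 and Insig1, the genes with a difference past the threshold. They are written 5′ to 3′ on the gene's strand, which is the plus strand for all 3, and lie at chr13:119690101-119690350, chr13:8885356-8885605 and chr5:28071162-28071411. Capitals mark the sterol regulatory element form TCACNCCAC, the NF-Y box CCAAT and the Sp1 box GGGCGG, searched on both strands, so that a match on the other strand reads ATTGG or CCGCCC.
Hmgcs1: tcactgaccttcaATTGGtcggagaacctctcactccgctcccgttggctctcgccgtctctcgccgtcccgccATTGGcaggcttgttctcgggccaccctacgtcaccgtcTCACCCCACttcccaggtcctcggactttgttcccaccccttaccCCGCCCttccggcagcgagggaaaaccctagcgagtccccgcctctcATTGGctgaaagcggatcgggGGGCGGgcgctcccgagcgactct
Idi1: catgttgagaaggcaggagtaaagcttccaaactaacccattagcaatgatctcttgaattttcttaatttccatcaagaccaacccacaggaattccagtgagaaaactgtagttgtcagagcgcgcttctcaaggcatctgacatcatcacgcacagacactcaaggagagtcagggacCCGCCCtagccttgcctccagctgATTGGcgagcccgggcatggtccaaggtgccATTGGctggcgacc
Insig1: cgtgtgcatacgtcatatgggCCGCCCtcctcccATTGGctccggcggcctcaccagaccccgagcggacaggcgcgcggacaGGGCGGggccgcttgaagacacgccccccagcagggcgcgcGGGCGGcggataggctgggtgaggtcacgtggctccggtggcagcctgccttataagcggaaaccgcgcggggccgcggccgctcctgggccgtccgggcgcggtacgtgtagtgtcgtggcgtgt
Hmgcs1 held the sterol regulatory element form once, from base -137 to base -129 before the start site, with 3 NF-Y boxes and 2 Sp1 boxes. Idi1 held 2 NF-Y boxes and 1 Sp1 box, Insig1 held 1 and 3, Lss held 1 and 2, and Cyp51 held 1 of each. No marked match overlapped another. Among 32851 RefSeq windows of the same length, 1.05% held the sterol regulatory element form, 33.8% an NF-Y box and 32.7% an Sp1 box. These matches describe letters in a window and are not evidence of binding.

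The libraries held between 3414123 counts (wild-type male tumour replicate 2) and 26174008 counts (wild-type female normal replicate 1). Over the 21 pairs of libraries within groups, counts differed by a chi-square per degree of freedom of 6.60 to 63.4, so no pair agreed within counting noise. App was at 449 to 1003 CPM (counts scaled to library size, with trimmed mean of M-values, TMM, factors) in the 12 wild-type libraries and at 489 to 716 CPM in the 9 knock-in libraries. A knock-in of point mutations leaves the gene in place, so this level does not check the genotype labels. Xist was at 1714 CPM or more in each female library and at 16.9 CPM or less in each male library, as labelled. The epithelial markers Epcam, Cdh1 and Vil1 were present in every group, with group means of 931 CPM or more for Epcam. Smooth muscle markers (8 genes summed) ran from 1907 to 9358 CPM in normal colon and from 198 to 1003 CPM in tumours. The library numbers 152 and above belong to 3 tumours, replicates 2 and 3 of the wild-type females and replicate 3 of the knock-in males, and lie apart from the other numbers of those groups.

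Per kilobase of exon, Hmgcs1 had the highest level of the 7 genes in every group. In wild-type male normal colon its level was 43.8 ± 10.3 CPM per kb (SD, n = 3), followed by Insig1 at 24.4 ± 10.6, Cyp51 at 24.2 ± 5.89, Sqle at 18.2 ± 3.77, Fdft1 at 17.4 ± 5.57, Idi1 at 7.67 ± 2.37 and Lss at 2.83 ± 0.592 CPM per kb. Lss was lowest and Idi1 next to lowest in every group. The mean ± SD ranges of Insig1, Cyp51, Sqle and Fdft1 overlapped in this group. The annotated exons of Lss add up to 10787 bases, against 3093 to 5546 bases in the other 6 genes, which lowers its value per kilobase. Each library gave at least 102 counts to Idi1, the gene with the lowest count, and that minimum was in the shallowest library, where counting error adds most to the spread.

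Across groups the levels moved over a narrow range. The highest group mean was 1.46-fold (Sqle) to 2.24-fold (Idi1) above the lowest. By mean, wild-type male normal colon was the lowest group for all 7 genes, with replicate 3 low in each. Summed over the 7 genes, its libraries were at 701, 715 and 431 CPM. By the median of this sum it was at 701 CPM, beside wild-type male tumours at 702 CPM and above knock-in female normal colon at 673 CPM. Knock-in male tumour was the highest group for Hmgcs1, Idi1, Sqle, Lss and Cyp51, wild-type female tumour for Fdft1, and wild-type female normal colon for Insig1. When the groups were ordered by mean level, neighbouring groups overlapped at every step for each of the 6 enzymes. For Insig1 they overlapped at all steps but the one from wild-type male tumour to wild-type female tumour. The share of the variance of log2 CPM that lay between groups ran from 32.8% (Sqle) to 64.6% (Idi1), so much of the variation in these genes was between libraries of the same group. Means of 3 libraries also differ through the spread of libraries alone, so part of this share arises without a group difference. The share was not computed for all tested genes.

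**Figure D1:**
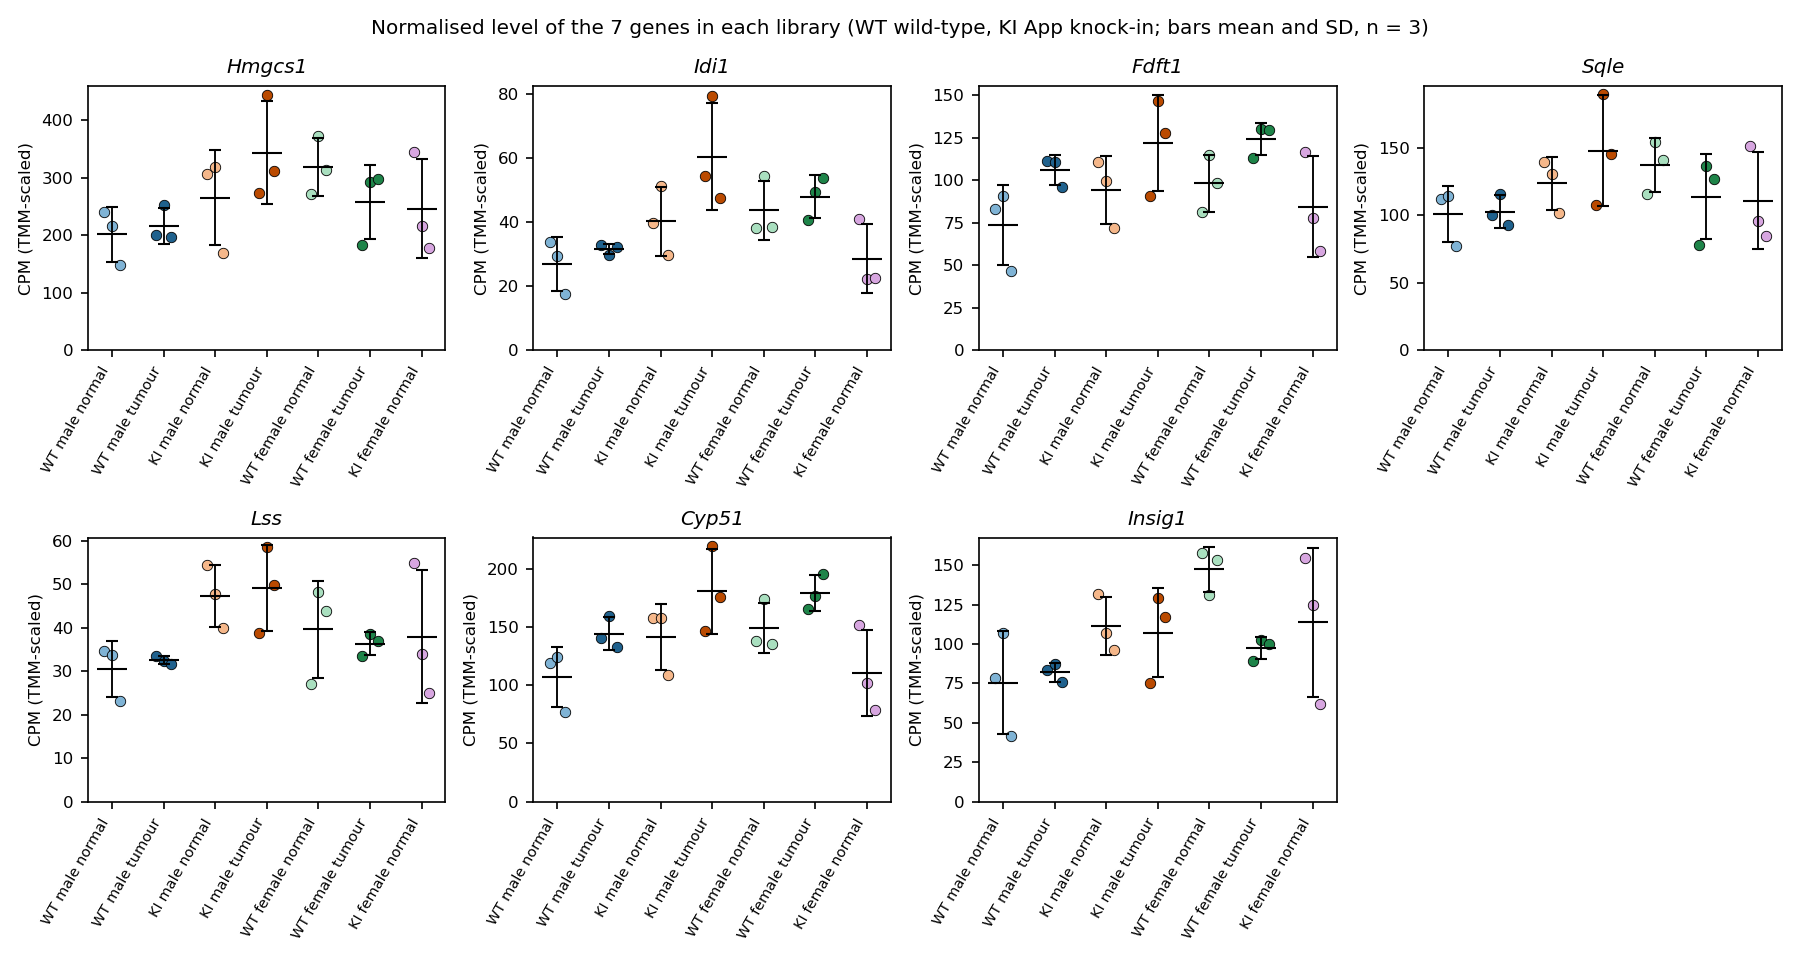
Level of each of the 7 genes in the 21 libraries, in CPM with TMM scaling (vertical axis), by group (horizontal axis). Points are libraries and bars give the mean and SD (n = 3); libraries of the same group often differ as much as the groups do, and wild-type male normal colon has the lowest mean for all 7 genes.

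Hmgcs1, at the entry to the pathway, was at 240, 216 and 148 CPM in the 3 wild-type male normal libraries and at 200.3, 252 and 197 CPM in wild-type male tumours. Knock-in male libraries read 306, 319 and 169.8 CPM in normal colon and 274, 445 and 312 CPM in tumours. In females it was at 272, 373 and 313 CPM in wild-type normal colon, at 184, 292 and 298 CPM in wild-type tumours, and at 344, 217 and 178 CPM in knock-in normal colon. The knock-in male tumours lay above all wild-type male tumours, while the groups overlapped in the other tumour and genotype comparisons tested here.

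Idi1, which feeds the isoprenoid units, was at 33.7, 29.4 and 17.6 CPM in wild-type male normal colon and at 32.9, 29.7 and 32.0 CPM in wild-type male tumours. Knock-in male libraries read 39.6, 51.4 and 29.8 CPM in normal colon and 54.3, 79.3 and 47.5 CPM in tumours. In females it was at 38.1, 54.3 and 38.5 CPM in wild-type normal colon, at 40.6, 49.5 and 53.7 CPM in wild-type tumours, and at 41.0, 22.1 and 22.5 CPM in knock-in normal colon. The wild-type male tumours were close together, with a highest to lowest ratio of 1.11, and all 3 knock-in male tumours and all 3 wild-type female tumours lay above them.

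Insig1, the regulator, was at 78.3, 107 and 41.4 CPM in wild-type male normal colon and at 83.5, 87.5 and 75.7 CPM in wild-type male tumours. Knock-in male libraries read 132, 107 and 96.0 CPM in normal colon and 75.4, 129.5 and 117 CPM in tumours. In females it was at 158, 131 and 154 CPM in wild-type normal colon, at 89.5, 103 and 100.2 CPM in wild-type tumours, and at 155, 125 and 62.2 CPM in knock-in normal colon. The wild-type female normal libraries lay above all wild-type male normal libraries and above all wild-type female tumours. Its widest group was wild-type male normal colon, with a highest to lowest ratio of 2.59.

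Of the 4 enzymes from squalene to lanosterol and beyond, Fdft1 ranged from 46.5 to 147 CPM, Sqle from 76.9 to 189.9 CPM, Lss from 23.2 to 58.5 CPM and Cyp51 from 77.1 to 219.8 CPM over the 21 libraries. Group means of Fdft1 were lowest in wild-type male normal colon (73.4 ± 23.5 CPM, SD, n = 3) and highest in wild-type female tumours (124 ± 9.65 CPM, SD, n = 3). Cyp51 read 119, 125 and 77.1 CPM in wild-type male normal colon, its lowest group, and 146, 219.8 and 176 CPM in knock-in male tumours, its highest. Lss stood at 30.5 ± 6.38 CPM (SD, n = 3) in wild-type and 47.3 ± 7.23 CPM (SD, n = 3) in knock-in male normal colon. Sqle was the flattest of the 7 genes, and its lowest and highest groups, wild-type male normal colon and knock-in male tumour, overlapped. For Hmgcs1, Fdft1, Sqle, Lss and Cyp51 the widest group was knock-in female normal colon, in which replicate 1 was the highest library for all 7 genes.

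Tumour and normal colon were compared first, within each genotype and sex that had both. None of the 7 genes passed the threshold of an adjusted p of 0.05 in any of these 3 comparisons (edgeR quasi-likelihood test, Benjamini-Hochberg adjustment over the 15936 genes tested). The comparisons as a whole were rich in differences: the share of all tested genes that passed was 35.7% for wild-type males, 20.4% for knock-in males and 49.1% for wild-type females. At an unadjusted p under 0.05 the numbers of the 7 genes were 0, 1 and 0, where 45.3%, 35.9% and 55.1% of all tested genes were under it. The median log2 fold change of the 7 genes was 0.12 for wild-type males, 0.35 for knock-in males and -0.12 for wild-type females, beside 0.01 for all tested genes in each comparison.

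In wild-type males all 7 estimates were above 0, from 0.02 (Sqle) to 0.53 (Fdft1). The 7 genes shifted together between libraries, so their signs are not 7 separate observations, here and in the comparisons below. Tumours were above normal colon without overlap for Fdft1 and Cyp51, 2 of the 7, while 26% of all tested genes were higher without overlap. Fdft1 was at 111, 110.5 and 96.1 CPM in tumours against 83.3, 90.4 and 46.5 CPM in normal colon, a log2 fold change of 0.53 with a 95% interval from -0.03 to 1.08 and an adjusted p of 0.121 (edgeR). The interval for Hmgcs1 ran from -0.51 to 0.71 and that for Sqle from -0.52 to 0.56, so neither interval shows that the gene stayed level. In knock-in males 6 of the 7 estimates were above 0, the largest that of Idi1 at 0.58 (95% interval 0.00294 to 1.17, adjusted p 0.13, edgeR), and no gene was without overlap, against 33.5% of all tested genes. In wild-type females 3 estimates were above 0 and 4 below, Lss among the latter at -0.12 but at 0.0176 with library totals in place of TMM. Insig1 was lower in tumours without overlap, where 28.6% of all tested genes were lower in this way, with a log2 fold change of -0.60 (95% interval -1.25 to 0.06, adjusted p 0.116, edgeR). Without the libraries of the other groups in the fit, the Insig1 difference in females reached an adjusted p of 0.00221 (edgeR), and with limma's voom weights 0.0382.

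Tumour and normal tissue also differed in cell type markers. All 8 smooth muscle markers fell in tumours in each of the 3 comparisons, with summed levels of 2807 to 9336 CPM in wild-type male normal colon and 222 to 768 CPM in wild-type male tumours, and Myh11 and Acta2 stayed above 0 in every group. Markers of differentiated colonocytes fell in 6, 5 and 7 of 7 genes in wild-type males, knock-in males and wild-type females, and proliferation markers rose in 4, 7 and 8 of 8 genes in that order. Among 8 epithelial markers 5, 0 and 7 fell and 1 rose in each comparison. Fibroblast markers fell in 2 of 8 genes in wild-type males, 1 rose and 1 fell in knock-in males, and 5 rose and 2 fell in wild-type females. Rn45s, the ribosomal RNA precursor, took 4.90% to 8.26% of the counts in normal colon and 9.30% to 13.1% in tumours of wild-type males, and 2.84% to 3.18% and 7.96% to 9.998% in wild-type females, without overlap in either. In knock-in males it took 6.59% to 14.1% and 6.95% to 8.23%. The part of these shifts in the results for the 7 genes was not tested. In bulk tissue, fewer cells of a type and less RNA per cell cannot be told apart. The tumour effect did not differ past the threshold between knock-in and wild-type males or between wild-type females and males for any of the 7 genes. The smallest adjusted p-values of these interactions were 0.579 and 0.509 (edgeR), while 1.51% and 1.12% of all tested genes passed.

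**Figure D2:**
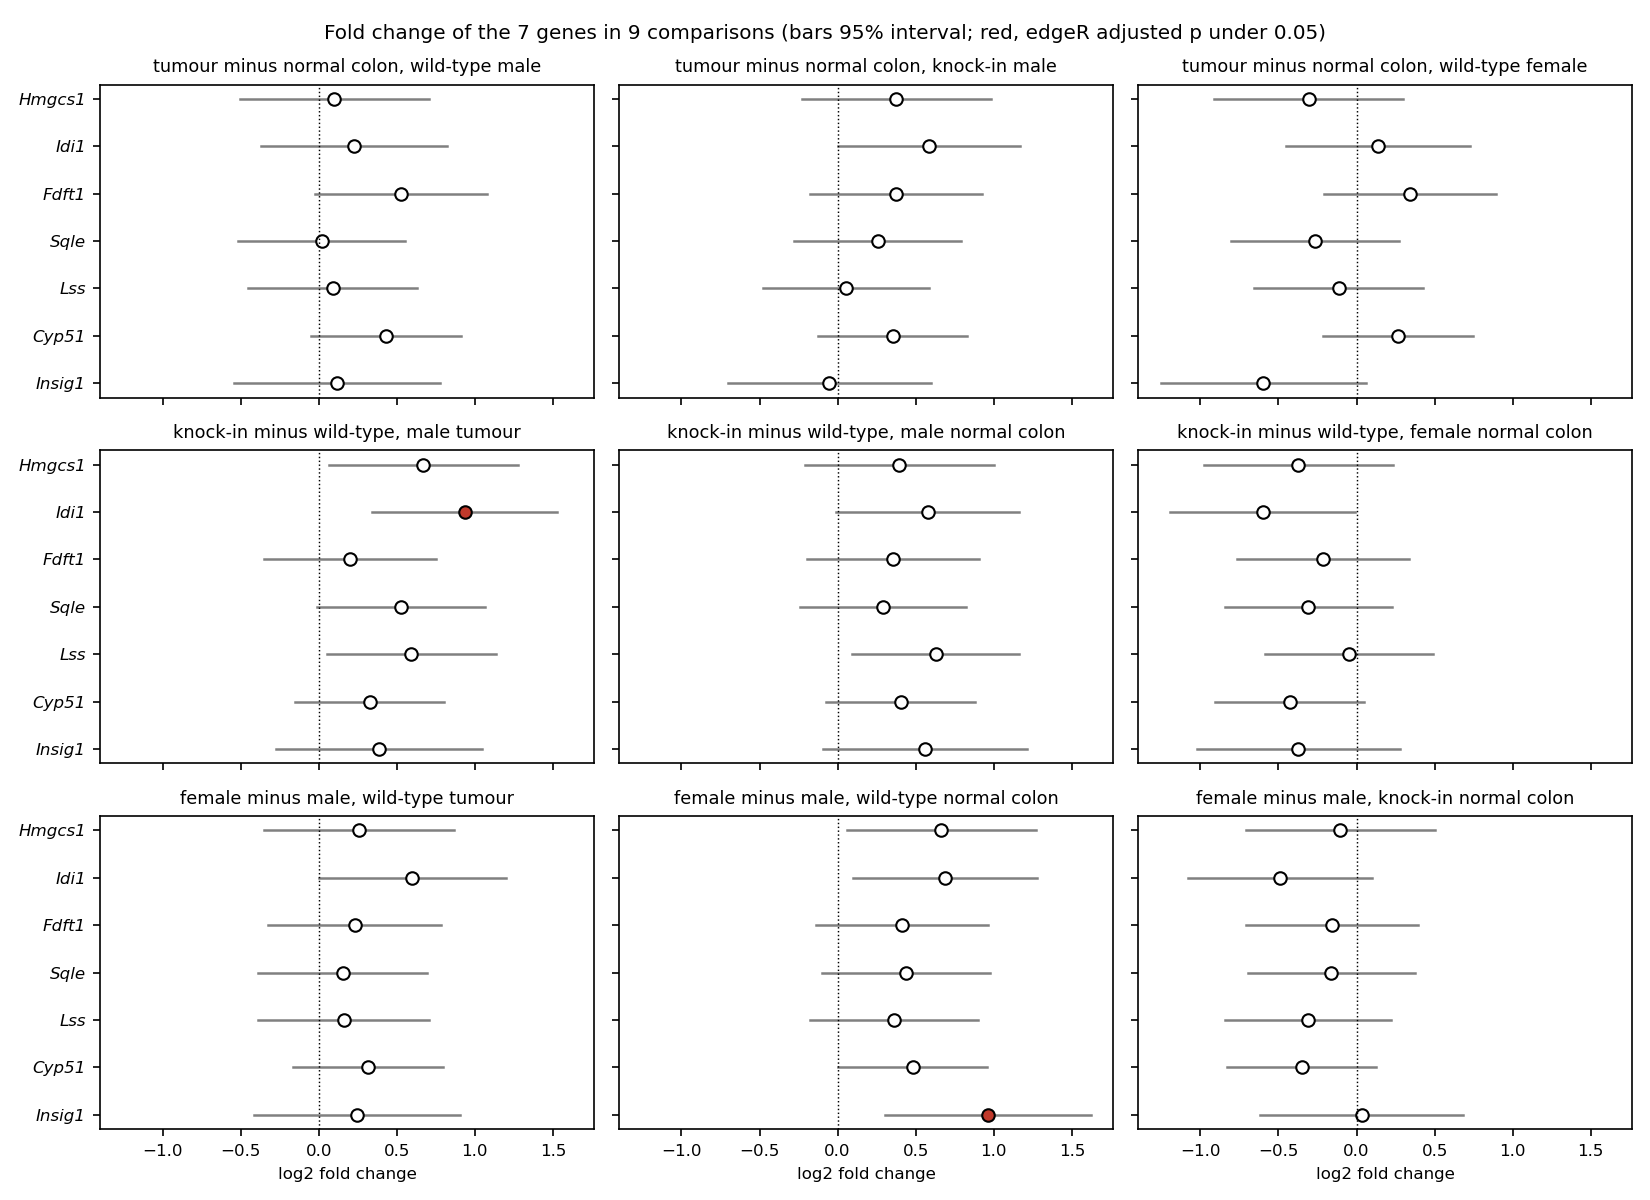
Log2 fold change (horizontal axis) of each of the 7 genes (vertical axis) in the 9 pair comparisons, with 95% intervals. Red points passed an edgeR adjusted p of 0.05: Idi1 in knock-in against wild-type male tumours (0.93) and Insig1 in female against male wild-type normal colon (0.96).

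The genotypes were compared next, in tumours of males. Idi1 was higher in knock-in male tumours, and the other 6 genes had estimates above 0 that did not pass. Idi1 averaged 60.4 ± 16.8 CPM (SD, n = 3) in knock-in and 31.5 ± 1.67 CPM (SD, n = 3) in wild-type tumours, a log2 fold change of 0.93 (SE 0.28, 95% interval 0.34 to 1.53, adjusted p 0.0341, edgeR). That is 1 of the 7 genes, where 14.5% of all tested genes passed in either direction and 9.3% were higher. The median log2 fold change of the 7 genes was 0.53, beside 0.05 over all tested genes, and the estimates ran from 0.20 (Fdft1) to 0.93. Groups were without overlap, with knock-in higher, for Hmgcs1, Idi1 and Lss, 3 of the 7, while 20.2% of all tested genes were higher in this way. The estimate was 0.67 for Hmgcs1 (SE 0.28, adjusted p 0.112) and 0.59 for Lss (SE 0.25, adjusted p 0.113, edgeR). At an unadjusted p under 0.05 there were 4 of the 7 and 32.6% of all tested genes.

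The Idi1 call was lost without any 1 of 5 of the 6 libraries, the exception being knock-in replicate 3. Each of those fits gave a log2 fold change of 0.66 to 0.96 and an adjusted p of 0.0553 to 0.172, the highest without knock-in replicate 2, and leaving out replicate 3 gave the lowest adjusted p, 0.0267 (edgeR). With a correction for GC content and length the change was 0.66 with an adjusted p of 0.0894. In the same comparison 2 of 8 fibroblast markers were higher (summed level 2800 to 4157 CPM in knock-in and 2222 to 2664 CPM in wild-type tumours), and 1 of 8 epithelial markers, Krt18, was lower. The 8 epithelial markers together summed to 6914 to 8335 CPM in knock-in and 6775 to 7186 CPM in wild-type tumours. Smooth muscle markers summed to 855 to 1003 CPM in knock-in and 222 to 768 CPM in wild-type tumours, without a gene past the threshold, and 1 of 7 colonocyte markers was higher (502 to 1343 and 424 to 547 CPM). Glial markers were higher in 2 of 7 genes and leukocyte markers lower in 1 of 7. Rn45s took 6.95% to 8.23% of the counts in the knock-in and 9.30% to 13.1% in the wild-type tumours, without overlap. Their part in the Idi1 difference was not tested.

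In male normal colon the knock-in libraries had estimates above the wild-type for all 7 genes, from 0.29 (Sqle) to 0.63 (Lss) with a median of 0.40, and none passed. The adjusted p was 1.00 for each, and 0.0126% of all tested genes passed in this comparison. Lss was without overlap, at 54.4, 47.7 and 39.9 CPM in knock-in and 34.7, 33.7 and 23.2 CPM in wild-type males, with an unadjusted p of 0.0212 (edgeR). Such separation, with knock-in higher, was found in 3.74% of all tested genes. At an unadjusted p under 0.05 there were 2 of the 7, Lss and Idi1, and 3.34% of all tested genes. The 95% intervals of all 7 genes but Lss included 0, that of Idi1 narrowly (-0.0102 to 1.16, unadjusted p 0.0496, edgeR).

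In female normal colon all 7 estimates were below 0, from -0.60 (Idi1) to -0.05 (Lss) with a median of -0.37, and none passed, where 16% of all tested genes did. The groups overlapped for all 7 genes, while 37.8% of all tested genes were without overlap. Under an unadjusted p of 0.05 were 1 of the 7, Idi1, and 31.2% of all tested genes. With library totals in place of TMM scaling the estimate for Lss was 0.0348. Knock-in female replicate 1 read 1.80 times (Sqle) to 2.20 times (Lss) the lowest library of its group for the 5 genes whose widest group this was. Without it, Idi1 was lower in knock-in females by a log2 fold change of -0.95 (adjusted p 0.0319, edgeR) and Cyp51 by one of -0.71 (adjusted p 0.0425, edgeR). In this comparison 4 of 8 smooth muscle markers were higher in the knock-in (6620 to 9358 against 1907 to 4432 CPM), and 3 of 8 fibroblast markers were higher (2256 to 2835 against 1174 to 1418 CPM). Leukocyte and glial markers were each higher in 1 of 7 genes and adipocyte markers in 1 of 4. Epithelial markers were lower in 1 of 8 genes and colonocyte markers in 1 of 7. Rn45s took 4.85% to 5.96% of the counts in the knock-in and 2.84% to 3.18% in the wild-type libraries, without overlap. The part of these shifts in the estimates was not tested.

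Since the estimates were positive in males and negative in females, the difference between the sexes was tested directly. The genotype effect in normal colon was smaller in females than in males for all 7 genes, by a log2 difference of -0.57 (Fdft1) to -1.18 (Idi1), with a median of -0.77, and none of the differences passed. The smallest adjusted p was 0.116 for Idi1 (95% interval -2.01 to -0.35), and 2.54% of all tested genes passed. At an unadjusted p under 0.05 there were 3 of the 7, Idi1, Cyp51 and Insig1, and 17.7% of all tested genes. Without knock-in female replicate 1 the difference for Idi1 was -1.52 with an adjusted p of 0.0384 (edgeR). The 2 genotype comparisons share no library, but both share their wild-type libraries with the comparison of the sexes in wild-type normal colon.

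Sex was compared within wild-type normal colon, wild-type tumours and knock-in normal colon. In wild-type normal colon Insig1 was higher in females, with a mean of 147 ± 14.3 CPM (SD, n = 3), while males averaged 75.6 ± 32.9 CPM (SD, n = 3). Its log2 fold change was 0.96 (SE 0.31, 95% interval 0.30 to 1.62, adjusted p 0.0415, edgeR). It was 1 of the 7 genes to pass, where 15.9% of all tested genes passed and 5.74% were higher in females. All 7 estimates were above 0, from 0.36 (Lss) to 0.96, with a median of 0.48 beside -0.00398 over all tested genes. These are not 7 separate observations, since the genes shifted together between libraries. Hmgcs1, Idi1, Sqle, Cyp51 and Insig1, 5 of the 7, were higher in females without overlap, and 16.7% of all tested genes were. At an unadjusted p under 0.05 there were 4 of the 7 and 31.6% of all tested genes. Beside Insig1 these were genes with adjusted p-values of 0.117 for Hmgcs1, 0.095 for Idi1 and 0.148 for Cyp51 (edgeR).

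The wild-type male normal libraries enter this comparison, the male tumour comparison and the genotype comparison in male normal colon alike. Their mean was the lowest of the groups for all 7 genes, and replicate 3 was the lowest of them in each gene. The Insig1 call was lost without any 1 of 5 of the 6 libraries, the exception being male replicate 2, with adjusted p-values from 0.0187 to 0.123 and log2 fold changes from 0.67, without male replicate 3, to 1.29 (edgeR). It was also lost with library totals (adjusted p 0.0710), without the filter on low counts (0.0682), with only the 2 groups in the fit (0.0811) and with the GC and length correction (0.0561). In the same comparison 3 of 8 smooth muscle markers were lower in females (1907 to 4432 against 2807 to 9336 CPM), as were 3 of 8 fibroblast markers (1174 to 1418 against 2446 to 2726 CPM), and 1 of 7 colonocyte markers was higher (2424 to 5667 against 1367 to 3324 CPM). Rn45s took 2.84% to 3.18% of the counts in the female and 4.90% to 8.26% in the male libraries. Their part in the Insig1 difference was not tested.

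In wild-type tumours all 7 estimates were above 0 in females, from 0.15 (Sqle) to 0.60 (Idi1) with a median of 0.25, and none passed, where 0.86% of all tested genes did. Idi1, Fdft1, Cyp51 and Insig1, 4 of the 7, were higher without overlap, and 16% of all tested genes were. Under an unadjusted p of 0.05 were 1 of the 7, Idi1, and 21% of all tested genes. Of the 3 female tumours, 2 carry the late library numbers, and with that number as a covariate the estimate for Sqle was -0.11. Idi1 passed with only the 2 groups in the fit (log2 fold change 0.60, adjusted p 0.0290, edgeR) and with limma's voom weights (0.64, adjusted p 0.0412). In knock-in normal colon 6 of the 7 estimates were below 0, with a median of -0.16, none passed and all groups overlapped. In that comparison 0.584% of all tested genes passed and 19.7% were without overlap, and under an unadjusted p of 0.05 were 0 of the 7 and 15.3% of all tested genes.

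In all, 2 of the 63 tests of pairs of groups and 0 of the 21 tests of interactions were past the threshold. The interactions held 3 under an unadjusted p of 0.05, all in the difference of genotype effects between the sexes, where 17.7% of all tested genes were under it. For the tumour effect they held 0 between the male genotypes and 0 between the sexes, where 25.2% and 13.8% of all tested genes were under it.

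The 7 genes moved together between libraries of the same group. Each value was expressed as a deviation from the mean of its group, on the log2 CPM scale. In 11 of the 21 libraries all 7 genes deviated to the same side, and in 17 at least 6 did. Knock-in female normal replicate 1 was above its group by 0.50 to 0.61 in all 7 genes, and wild-type male normal replicate 3 was at -0.76 to -0.37 in all 7. Knock-in male tumour replicate 2 was above by 0.27 to 0.43, and knock-in male tumour replicate 1 was at -0.47 to -0.12. With 3 libraries per group, a high library pulls the others below the mean, so the libraries of 1 group are not independent in this count. Nor are the 7 genes independent in the counts of estimates above or below 0 given for the comparisons.

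**Figure D3:**
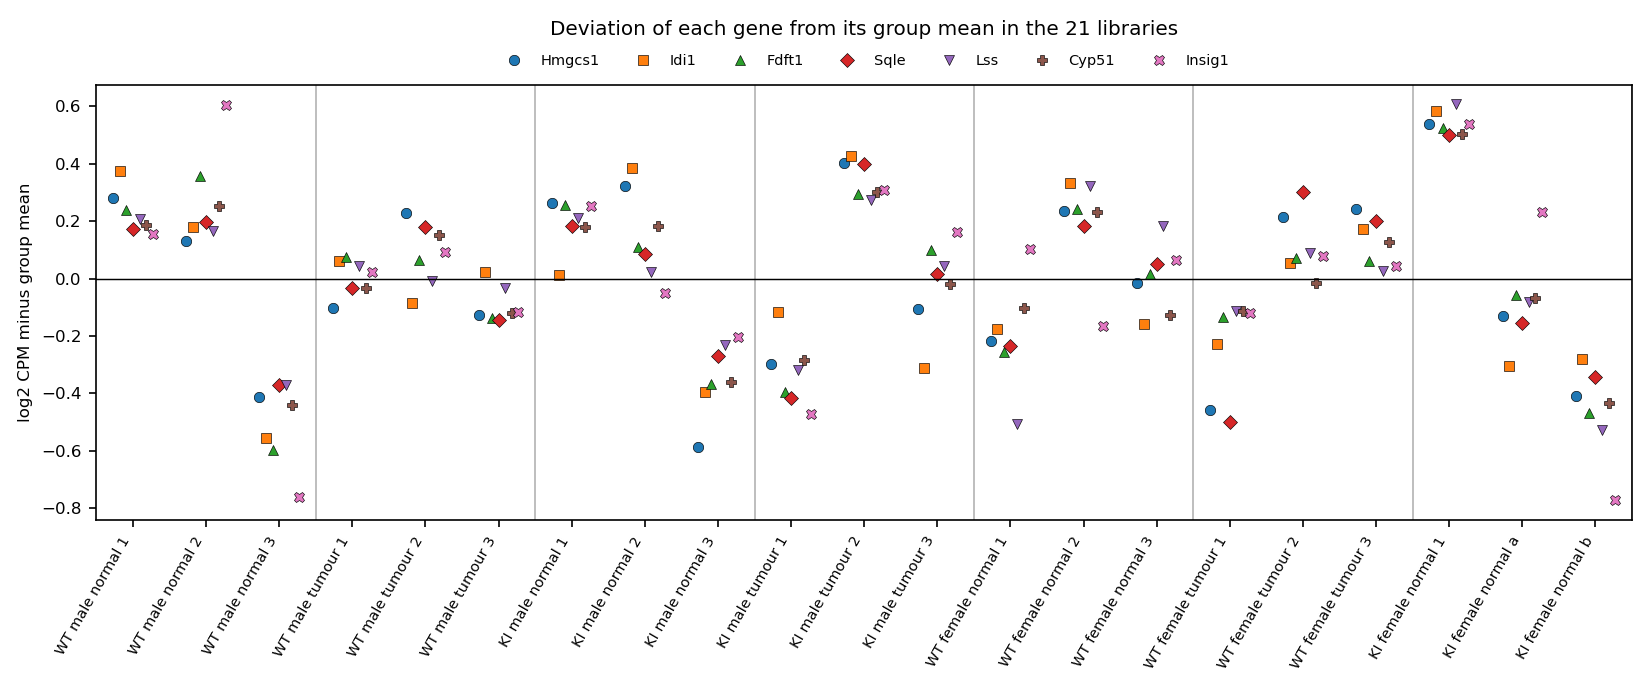
Deviation of log2 CPM from the group mean (vertical axis) for each of the 7 genes in the 21 libraries (horizontal axis), with groups separated by grey lines. In 11 libraries all 7 symbols lie on the same side of 0, and wild-type male tumours show the narrowest range.

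Pearson's r of these deviations over the 21 libraries ran from 0.56 (Idi1 with Insig1) to 0.96 (Fdft1 with Cyp51) over the 21 pairs of genes, with a median of 0.86. Without subtracting group means, r ran from 0.52 to 0.96 with a median of 0.74. Insig1 was the least like the others. A score was formed as the mean of the standardised log2 CPM of the 7 genes. Within groups its r was -0.29 with the summed smooth muscle markers, -0.08 with the epithelial markers, 0.42 with the fibroblast markers, 0.40 with the proliferation markers, -0.16 with the Rn45s share and 0.06 with the library total. The points share libraries and scaling factors, and these values are descriptions without a test.

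All 15929 other tested genes were ranked by their r with this score within groups. Of these, 39, or 0.245%, reached 0.8, and 5 of the 39 were among the 14 other enzymes of cholesterol synthesis. The named genes most like the score were Hsd17b7 (r 0.94), a sterol ketoreductase that acts after Cyp51, Nsdhl (0.91), the decarboxylating dehydrogenase of the same steps, and Msmo1 (0.90), the methyl oxidase that precedes Nsdhl. They were followed by Gcnt4 (0.89), Ckap4 (0.89), Tuba1c (0.88), Cwh43 (0.86) and Rrn3 (0.86), which are not enzymes of the pathway. Over the 21 libraries with group differences kept, the named genes most alike were Hsd17b7 (0.87), the desaturase gene Scd2 (0.82), Rabl3 (0.80), Gramd2 (0.79), Gda (0.77), Msmo1 (0.76), Fgfr1op (0.76) and Ccz1 (0.75). The median r of the 14 other enzymes was 0.65 within groups, against -0.00319 over all other genes, with a range from -0.37 (Tm7sf2) to 0.97. Dhcr7, Ebp and Tm7sf2 were at 0.19, 0.05 and -0.37. The median of the 14 fatty acid synthesis genes was 0.18 and that of the 10 efflux and LXR genes -0.16.

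**Figure D4:**
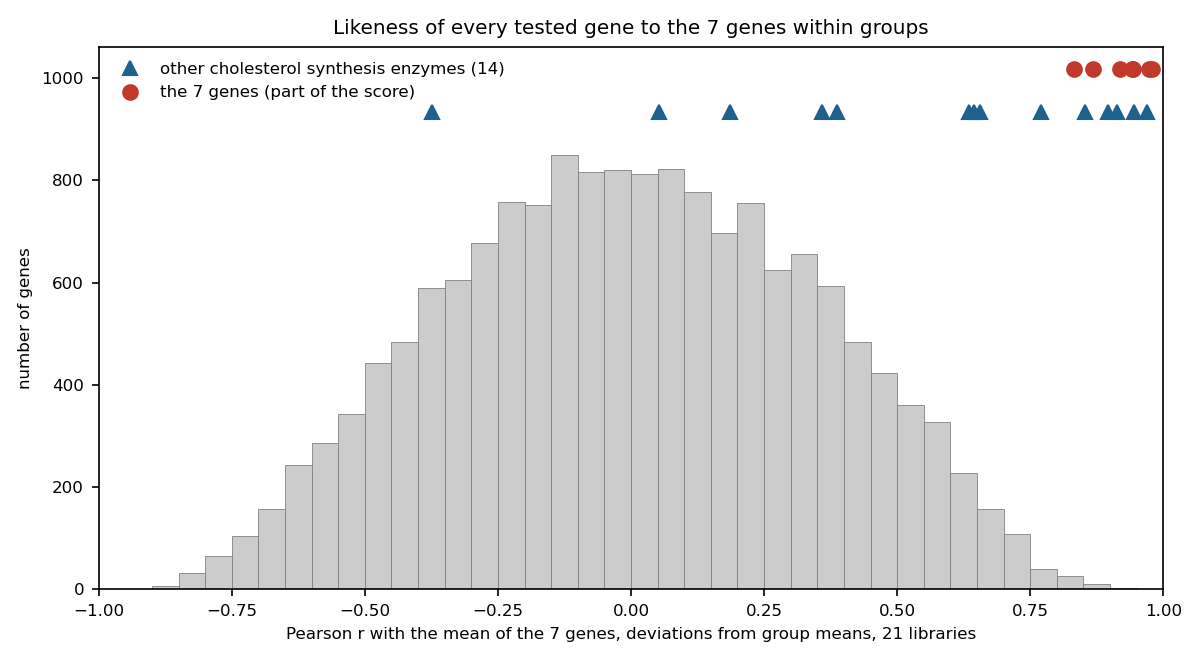
Number of tested genes (vertical axis, grey bars) by Pearson's r with the mean of the 7 genes within groups, over 21 libraries (horizontal axis). Blue triangles mark the 14 other cholesterol synthesis enzymes, 5 of which lie at or above 0.8, and red circles the 7 genes themselves, which are part of the score.

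The rest of the pathway was described from a list of 14 other enzymes, all of them tested. Against normal colon, 3 of the 14 rose and 2 fell in wild-type male tumours, 4 rose and 4 fell in wild-type female tumours, and none passed in knock-in male tumours. Counts of 5 and 8 of 14 are near the 35.7% and 49.1% of all tested genes that passed in wild-type males and females, and the counts of the further lists are read against the same shares. Mvd, which makes isopentenyl diphosphate, rose from 23.1 ± 6.85 to 41.9 ± 0.846 CPM (SD, n = 3) in wild-type males, 0.86 on the log2 scale (SE 0.21, adjusted p 0.00394, edgeR), and by 0.75 in wild-type females (adjusted p 0.00632). Fdps, the farnesyl diphosphate synthase, rose by 0.59 (adjusted p 0.0436) and 0.68 (adjusted p 0.0156), and Tm7sf2, a sterol reductase, by 0.66 (adjusted p 0.0165) and 0.70 (adjusted p 0.00825). Exons of Tm7sf2 overlap those of Vps51 on the same strand. Toward the end of the pathway the change was in the other direction. Ebp, the sterol isomerase, fell in wild-type males by 0.58 on the log2 scale and in wild-type females by 0.84, and Dhcr7, the last reductase, fell by 0.75 and by 0.69, all with adjusted p-values of 0.00312 or less. The calls for Mvd, Ebp and Dhcr7 held in both sexes in all 11 alternative settings and with each of the 6 libraries left out. In wild-type females Nsdhl rose by 0.45 (adjusted p 0.0376), while Msmo1 fell by 0.80 (adjusted p 0.0261) and Sc5d by 0.43 (adjusted p 0.0308), and these 3 calls, like those for Fdps and Tm7sf2 in females, were lost with the late library number as a covariate. The median over the 14 was 0.25, 0.15 and 0.16 in wild-type male, knock-in male and wild-type female tumours. In males Fdps was lost in 3 of the 11 settings, and Fdps and Tm7sf2 without any of 3 of the 6 libraries each.

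**Figure D5:**
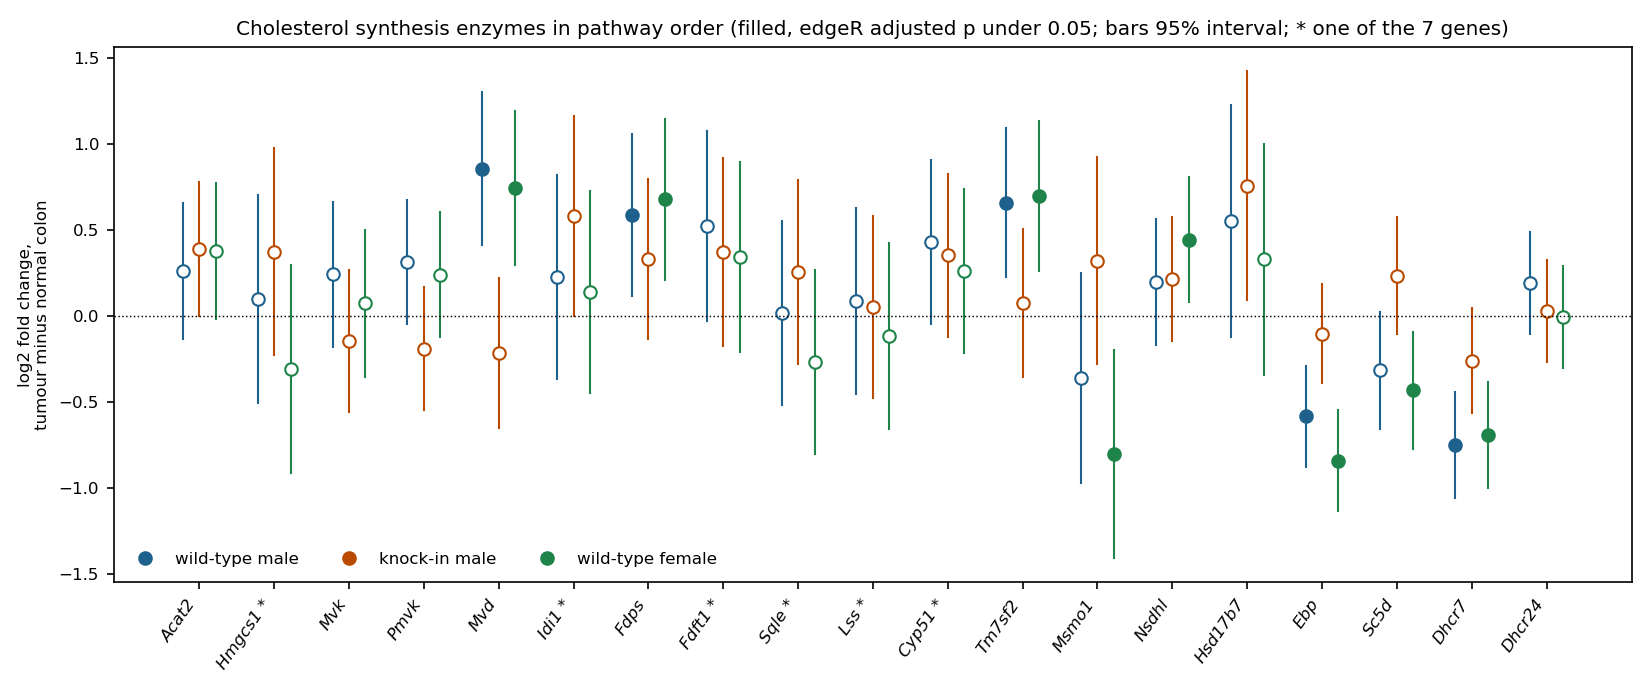
Log2 fold change of tumour against normal colon (vertical axis) with 95% intervals for 19 of the 20 cholesterol synthesis enzymes considered, in pathway order (horizontal axis), in wild-type males, knock-in males and wild-type females. Filled points passed an edgeR adjusted p of 0.05 and stars mark genes among the 7; Mvd, Fdps and Tm7sf2 lie above 0 and Ebp and Dhcr7 below 0 in both wild-type comparisons.

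In knock-in against wild-type male tumours Msmo1 and Sc5d, 2 of the 14, were higher, a count near the 14.5% of all tested genes that passed in this comparison. Msmo1 averaged 116 ± 34.7 CPM in the knock-in and 57.3 ± 5.17 CPM in the wild-type (SD, n = 3), 1.02 higher on the log2 scale (SE 0.29, adjusted p 0.0286, edgeR). Sc5d, the desaturase that acts after Ebp, was 0.54 higher (adjusted p 0.0341). Both were lost with the GC and length correction, without any 1 of the wild-type tumours and without replicate 2 of the knock-in, Sc5d also without knock-in replicate 1. In wild-type normal colon Msmo1 was higher in females, with 158 ± 49.8 and 73.2 ± 16.1 CPM in females and males (SD, n = 3), 1.11 higher on the log2 scale (SE 0.28, adjusted p 0.0145, edgeR), a call lost without female replicate 2 (adjusted p 0.0948). In the other comparisons of genotype or sex none of the 14 passed.

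Of the 5 genes for SREBP2 and the proteins that hold, carry or cleave it, Srebf2 itself rose in wild-type male tumours, from 345 ± 28.2 to 457 ± 11.7 CPM (SD, n = 3), by 0.40 on the log2 scale (SE 0.11, adjusted p 0.0107, edgeR). This was lost with the GC and length correction and without normal replicate 1 or 3. Mbtps1, the site-1 protease, also rose there, by 0.26 (adjusted p 0.0496), did not pass with the replicate number as a block (adjusted p 0.0890), and was lost with each of the 6 libraries left out. In wild-type females Srebf2 rose by 0.30 (adjusted p 0.0348) and Scap by 0.32 (adjusted p 0.0200), while Insig2, the second INSIG gene, fell by 0.46 (adjusted p 0.00973), and all 3 were lost with the late library number as a covariate. With the GC and length correction Srebf2 was at 0.0879 (adjusted p 0.542) and Scap at 0.0555 (adjusted p 0.653) in this comparison. In knock-in males Mbtps2, the site-2 protease, rose by 0.58 (adjusted p 0.00583), which was lost with the GC and length correction and with only these groups in the fit. Exons of Mbtps2 overlap those of Yy2 on the same strand. None of the 5 passed in a comparison of genotype or sex.

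The uptake and transfer list held 8 genes, of which 7 were tested. In wild-type male tumours 1 rose and 2 fell, in wild-type females 4 rose and 2 fell, and in knock-in males 1 fell. Stard4, a sterol carrier of the cytosol and a known SREBP2 target, fell in wild-type male tumours from 112 ± 3.42 to 62.7 ± 2.18 CPM (SD, n = 3), by 0.84 on the log2 scale (SE 0.19, adjusted p 0.00204, edgeR). In wild-type female tumours it fell by 1.02 (adjusted p 0.000184), and in knock-in male tumours it was 110.2 ± 25.3 against 120 ± 27.7 CPM (SD, n = 3) in normal colon. The tumour effect did not differ past the threshold between knock-in and wild-type males for Stard4 or any other tested gene of this list. In male tumours Stard4 was higher in the knock-in, by 0.82 on the log2 scale (SE 0.19, adjusted p 0.0115), and the calls in wild-type tumours held in all alternatives. The call in knock-in tumours was lost without wild-type replicate 1 or knock-in replicate 2, with log2 fold changes of 0.59 to 0.92 and adjusted p-values up to 0.0767 over all alternatives and libraries left out in turn. Scarb1, a receptor for high-density lipoprotein, rose in wild-type female tumours by 0.77 (adjusted p 0.000267). In normal colon it was lower in wild-type females than in males by a log2 fold change of -0.66 (adjusted p 0.00541), and knock-in females were above wild-type females by 0.67 (adjusted p 0.00526). Npc2, a lysosomal cholesterol carrier, fell in wild-type female tumours by 0.75 (adjusted p 4.1e-05), in knock-in male tumours by 0.55 (adjusted p 0.00514) and in wild-type male tumours by 0.31 (adjusted p 0.0463, and 0.0623 with the replicate number as a block). The call in wild-type males was lost in 6 of the 11 settings and with 4 of the 6 libraries left out in turn, with a highest adjusted p of 0.203. Tmem97 rose in wild-type females by 0.60 (adjusted p 0.00362).

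A further list held 10 genes of the LXR receptors, cholesterol efflux, esterification and oxysterol formation. In wild-type tumours Abca1, which exports cholesterol, rose by 1.13 in males (adjusted p 0.00148) and by 1.93 in females (adjusted p 6.28e-06, edgeR). Abcg5, part of the apical sterol exporter, fell by 1.66 on the log2 scale in males (adjusted p 0.00548) and by 1.92 in females (adjusted p 0.00103). Nr1h3, the gene of LXR alpha, fell by 0.88 and 1.24 in wild-type males and females and by 0.99 in knock-in males, with adjusted p-values of 0.00920 or less, and the call in wild-type males was lost without normal replicate 3. Of the 10 genes 1 rose and 2 fell in wild-type male tumours, 2 fell in knock-in male tumours, and 2 rose and 3 fell in wild-type female tumours.

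Enzymes that draw isoprenoids from the pathway into other products formed a list of 8. Pdss1 and Pdss2, subunits of the synthase for the coenzyme Q side chain, fell in wild-type male tumours by 1.01 (adjusted p 0.000787) and 0.54 (adjusted p 0.00864), and in wild-type female tumours by 1.08 (adjusted p 0.00016) and 1.22 (adjusted p 3.67e-06, edgeR). In male tumours Pdss1 was higher in the knock-in, by a log2 fold change of 0.94 (adjusted p 0.00903), a call lost without knock-in replicate 2 and with the GC and length correction and the replicate block together (0.53, adjusted p 0.0668). Pdss2 was higher in wild-type female than male normal colon, by 0.67 (adjusted p 0.00491), and in female normal colon it was lower in the knock-in by a log2 fold change of -0.57 (adjusted p 0.0129, lost without wild-type replicate 2 or knock-in replicate 1).

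Of the 14 fatty acid synthesis and desaturation genes, targets largely of the related factor SREBP1, 4 rose and 2 fell in wild-type male tumours, 2 rose and 3 fell in knock-in male tumours, and 6 rose and 3 fell in wild-type female tumours. The 4 in wild-type males include Srebf1, which did not pass with the replicate number as a block (0.48, adjusted p 0.0695). The Srebf1 call was lost in 4 of the 11 settings and with 4 of the 6 libraries left out in turn. Fasn, the fatty acid synthase, rose from 573 ± 161 to 1248 ± 71.4 CPM (SD, n = 3) in wild-type males, 1.12 on the log2 scale (SE 0.17, adjusted p 0.000107, edgeR). The desaturase gene Fads1 rose by 1.41 in wild-type males (adjusted p 0.000297) and by 2.71 in wild-type females (adjusted p 4.39e-07). Acss2, which makes acetyl-CoA from acetate, fell by 1.96 on the log2 scale in wild-type males (adjusted p 2.9e-06), by 0.93 in knock-in males (adjusted p 0.00295) and by 2.18 in wild-type females (adjusted p 1.42e-07). These calls held in all alternatives, and the same marker shifts as given for the tumour comparisons accompanied them. Elovl6, a fatty acid elongase, was lower in the knock-in in female normal colon, by a log2 fold change of -1.01 (adjusted p 0.000621).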

How the data were processed

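Total RNA from 21 samples was depleted of ribosomal RNA, copied with random hexamers and sequenced. The deposited table holds read counts per gene, which the authors made with Trimmomatic, HISAT2 and featureCounts on mm10, per the submitters' processing notes. Versions, the annotation and the strand setting are not given in the sources used here. Counts were taken as deposited. Totals ran from 3414123 to 26174008 counts per library, and 3 counts corresponded to 0.127 to 0.873 CPM, which covers counting error only. In the table, 2 columns for knock-in female normal colon carry the same header, so those libraries, called a and b, have no replicate number, and no replicate number pairs that group with another.

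Differences were tested with the quasi-likelihood F test of edgeR 4.0.16 (R 4.3.3) over all 7 groups with TMM factors, robust dispersion and edgeR's filter on low counts, which kept 15936 of 24062 genes. Adjusted p-values are Benjamini-Hochberg values over all tested genes, within each of 9 comparisons of pairs of groups and 3 interactions, with a threshold of 0.05. The 95% intervals use 14 residual degrees of freedom. The p-values use edgeR's own degrees of freedom, so an interval can just include 0 where the unadjusted p is under 0.05. CPM values use TMM factors, and log2 CPM a prior count of 2. The procedure was tested on simulated data with known changes, in 200 genes in wild-type male tumours against normal colon. It recovered 44.8% of the changes of 1 and 81.4% of those of 2 on the log2 scale, with 7 false calls. Smaller changes, the size of most estimates for the 7 genes, were not simulated.

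Alternatives were DESeq2 size factors, library totals, no filter, a mean count filter of 50, DESeq2 1.42.0, limma 3.58.1 with voom quality weights, only the compared groups, the replicate number as a block, the late library number as a covariate, and each library left out. A correction for GC content and length, with and without the block, was chosen after seeing the data, and its values cover 95.3% of genes and all 7 members. Deviations of same-numbered libraries had r above 0 for all 3 numbers only in wild-type male tumour against normal colon (0.17, 0.17 and 0.21). Replicate 1 of knock-in and of wild-type male normal colon, of different genotypes, reached 0.46. These values therefore do not show that the numbers pair samples. The block fitted the replicate numbers over 18 libraries at once and is not a paired analysis of any 1 comparison.

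The genes and lists were chosen with earlier results of these data known. Named genes were the 7 members, any gene of the sterol synthesis, SREBP2 and uptake lists, up to 3 genes with the smallest adjusted p-values per comparison of the efflux, isoprenoid and fatty acid lists, and the 10 genes most like the score. A selection of those is printed, passing over predicted, ribosomal and mitochondrial genes. Some listed genes are counted but not reported by name here. Figures were drawn with Python 3.11.15 and matplotlib 3.10.9.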

Additional observations from a re-analysis of the deposited data

Results flagged for a closer look

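Outside the 7 genes, the effects of 2 listed genes differed between groups by the interaction test. For Scarb1, the knock-in minus wild-type difference in normal colon was larger in females than in males by a log2 difference of 0.81 (edgeR adjusted p 0.0408). It was 0.67 in females (adjusted p 0.00526) and -0.14 in males (adjusted p 1.00). The call was lost in 1 of 9 alternative settings and with 8 of 12 libraries left out in turn, with a highest adjusted p of 0.127.

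For Acss2, the tumour minus normal difference was less negative in knock-in than in wild-type males, by a log2 difference of 1.02 (edgeR adjusted p 0.0492). It was -0.93 in the knock-in and -1.96 in the wild-type. The call was lost in 7 of 11 alternative settings, the replicate block among them (0.99, adjusted p 0.0575), and with 8 of 12 libraries left out in turn, with a highest adjusted p of 0.139.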

How the results depend on the processing

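Over the 7 genes, the 9 comparisons, the 3 interactions and the settings that kept all libraries, 851 values kept their direction and side of the threshold, 6 no longer passed, 6 newly passed and 19 changed sign. With libraries left out in turn the numbers were 579, 10, 3 and 38. In wild-type male tumours against normal colon 1 gene passed with the GC and length correction and the replicate block (Cyp51, 0.45, adjusted p 0.0395), and the block alone changed no call there among the 7. In wild-type females 1 passed with limma's voom weights and 1 with only the compared groups, Insig1 in both. In knock-in against wild-type male tumours 0 passed with the GC and length correction and 0 with that correction and the block. In female against male wild-type tumours 1 passed with voom weights and 1 with only the compared groups, Idi1 in both. In female against male wild-type normal colon 0 passed with library totals, 0 without the filter, 0 with only the compared groups, 0 with the GC and length correction, and 2 with the replicate block, Idi1 (0.67, adjusted p 0.0437) joining Insig1. The replicate numbers there share only a number. Leaving libraries out gave counts of 0 to 1 for genotype in male tumours, 0 to 2 for genotype in female normal colon, 0 to 1 for sex in wild-type normal colon and 0 to 1 for the genotype by sex interaction. With no alternative applied, 35.7%, 49.1%, 14.5%, 0.86% and 15.9% of all tested genes passed in the comparisons named first, in that order. For genotype in female normal colon it was 16%, and for the genotype by sex interaction 2.54%. The shares in the alternative fits are not given here, so these counts are not read as results about the 7 genes. The causes of these changes were not tested.

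Changes of sign were all in values that did not pass. With voom weights, wild-type male tumours gave Hmgcs1 -0.0469, Sqle -0.10 and Lss -0.00401, and knock-in male tumours gave Lss -0.0129, where the replicate block gave -0.00354. For Lss, library totals and voom weights gave 0.0176 and 0.17 in wild-type female tumours and 0.0348 and 0.18 for genotype in female normal colon. The late library number as a covariate gave Sqle -0.11 for sex in tumours, and voom weights gave Insig1 -0.14 for sex in knock-in normal colon. For the tumour effect between male genotypes, the GC and length correction with the block gave Hmgcs1 -0.0357 and Idi1 -0.0409. For the tumour effect between the sexes, library totals gave Idi1 0.0259, and voom weights gave Idi1 0.20, Fdft1 0.0605, Sqle 0.00298, Lss 0.17 and Cyp51 0.0364.

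With libraries left out, wild-type male tumours gave Hmgcs1 -0.0795 to 0.22, Sqle -0.15 to 0.10, Lss -0.0730 to 0.17 and Insig1 -0.18 to 0.44, and knock-in male tumours gave Lss -0.13 to 0.15 and Insig1 -0.24 to 0.10. Lss ranged from -0.34 to 0.0495 in wild-type female tumours and from -0.41 to 0.19 for genotype in female normal colon. For sex in knock-in normal colon Hmgcs1 ranged from -0.42 to 0.0826, Fdft1 from -0.46 to 0.0507, Sqle from -0.46 to 0.00234 and Insig1 from -0.25 to 0.33. For the tumour effect between male genotypes the ranges were -0.36 to 0.0903 for Fdft1, -0.20 to 0.13 for Lss, -0.25 to 0.11 for Cyp51 and -0.54 to 0.12 for Insig1. For the tumour effect between the sexes they were -0.27 to 0.14 for Idi1, -0.36 to 0.0569 for Fdft1 and -0.29 to 0.0221 for Cyp51.

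Library totals in place of TMM moved the median of all genes by 0.14 in wild-type female tumours and by 0.11 in the interaction of tumour and sex. They moved the share of higher genes among those past the threshold from 51% to 62.1% in wild-type female tumours, from 56.1% to 72.8% for genotype in female normal colon, from 46.7% to 61.2% for sex in tumours, from 36.1% to 21.4% for sex in wild-type normal colon and from 31.2% to 55% for sex in knock-in normal colon. The replicate block could not be used for comparisons with knock-in female normal colon because 2 of its 3 columns share a header. With 3 libraries per group, the widths of the intervals limit what these comparisons show.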
